A study of Rattus norvegicus with 46 samples.

Results

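The passively loaded legs of rats held immobile for 9-14d were compared with the passively loaded legs of rats held for 5-8d, in 10 of the 46 arrays of the series. The members were the arrays whose labels name a loaded leg and a later window: 6 legs of 9-14d (legs 46, 48, 50, 52, 58 and 60) and 4 legs of 5-8d (legs 42, 44, 54 and 56), 1 leg from each of 10 rats. Every rat was a female Sprague-Dawley rat under isoflurane, mechanically ventilated and paralysed with α-cobrotoxin, which occupies the acetylcholine receptor of the muscle end plate without depolarising it. A lever moved the left ankle through flexion and extension 12 hours a day, at 13.3 cycles per minute, while the opposite leg of the same rat had no such movement. There is no awake or unparalysed rat among the groups, so every comparison here is between paralysed rats killed at different times. The arrays measured total RNA from the proximal gastrocnemius, a mainly fast-twitch calf muscle, with Affymetrix probe sets. The 13 loaded legs of 6h-4d (6 hours of loading at the shortest duration) served to place the later windows on the course of the experiment. The labels give each rat a window and no exact duration, so rats within a window differ in time under paralysis.

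Muscle that can no longer be activated by its nerve behaves in part like denervated muscle. Acetylcholine receptor genes, normally transcribed at the end plate, become active along the fibre, fibres lose contractile protein through the ubiquitin-proteasome route, and fibroblasts and macrophages between the fibres remodel the matrix. Passive movement stretches the fibres and the matrix without any contraction, and stretch is sensed through mechanically gated channels, the costamere and the Z-disc. The question asked of the later windows was which of the changes already present at 5-8d went further, which stayed where they were, and which went back.

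Skeletal muscle fibre markers were high in all 10 legs, with a mean over the 8 measured markers of 13.2 to 13.6 on the log2 scale, where array medians lay between 6.07 and 6.20. In a principal component analysis of the 23 loaded legs over 9289 genes, the later windows shared one end of component 1 (45.3% of the variance), at 22.7 to 33.6 for 5-8d and 22.9 to 32.7 for 9-14d, and the legs of 6h-4d lay between -33.7 and 14.9. Component 2 (13.5%) placed the 5-8d legs at 3.78 or above and spread the 9-14d legs from 3.48 in leg 46 down to -40.0 in leg 50. Several legs stood apart from their window. Leg 42 of 5-8d had 8.60 for the receptor gene Chrna1, where the other 3 legs of its window had 12.6 to 13.3. Legs 50 and 52 of 9-14d had the highest mean levels of collagen and macrophage genes among the 10 later legs, and legs 46 and 48 of the same window lay close to the 5-8d legs in them. The labels carry date codes of unstated meaning. Among the later legs code 3 covers legs 42 to 52 and code 5 covers legs 54 to 60, so each holds legs of both later windows. Within the later legs component 3 (9.61%) ran from -23.1 to 7.52 in code 3 and from 10.2 to 26.1 in code 5. Of the 6h-4d legs, legs 32, 34, 36 and 38 carry code 3. The others carry codes 1, 2 or 4, which no later leg has, and code 5 has no 6h-4d leg. Changes from 6h-4d to the later windows, and the course classes, are therefore partly confounded with date code.

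**Figure D1:**
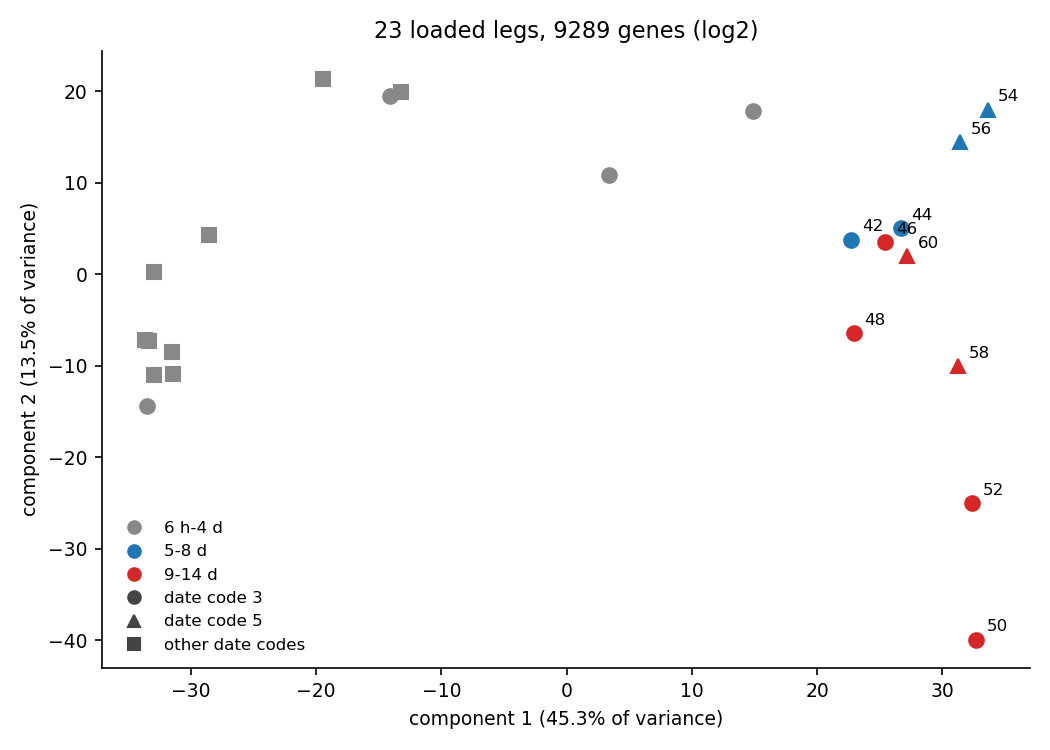
Principal components 1 and 2 of the 23 loaded legs over 9289 genes on the log2 scale. Each point is 1 leg, the colour gives the window, the shape the date code, and the later legs carry their numbers. Both later windows lie at 22.7 or above on component 1, and legs 50 and 52 have the lowest values on component 2.

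Far fewer genes differed between the later windows than between 5-8d and the first days. Of 9289 genes, 3620 passed the test between 5-8d and 6h-4d in loaded legs (39% of all genes, 2503 higher, 26.9%, and 1117 lower, 12%; limma with Benjamini-Hochberg adjustment at 0.05). Between 9-14d and 5-8d only 21 passed (0.226%), 15 higher (0.161%) and 6 lower (0.0646%). A gene was said to have held when it passed the first test and the whole 95% interval of its 9-14d minus 5-8d difference lay within 1.5-fold either way. By that rule 2242 of the 3620 genes held (61.9%), 1677 that had risen and 565 that had fallen. With date code as a term 583 genes held, and most 6h-4d legs carry codes that no later leg has. A further 8 continued in the same direction, 4 returned toward the first window, and 1366 (37.7%) could not be placed, because their interval reached past 1.5-fold. Another 9 genes passed between the later windows without a call in the first step. Among the 1682 genes whose first change was at least 1.5-fold, 629 held, 5 continued, none returned and 1048 could not be placed. Against 6h-4d the 9-14d legs differed in 4110 genes (44.2%), 2696 higher (29%) and 1414 lower (15.2%). Over all genes, called first or not, the later interval lay within 1.5-fold in 5972 (64.3%), so the share that held is near the background and says nothing particular about the genes called first. In 237 genes (2.55%) the 9-14d and 5-8d legs did not overlap, 78 with the later legs higher (0.84%) and 159 with them lower (1.71%). The 2 steps share the 5-8d legs, so a chance deviation of those 4 legs moves them in opposite directions.

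Among the genes that held, which have small later differences by the rule that chose them, those with the largest early changes are given as examples. Pfkm, the muscle phosphofructokinase of glycolysis, had a mean of 13.0 at 6h-4d, 11.4 ± 0.20 at 5-8d (SD, n = 4) and 11.6 ± 0.18 at 9-14d (SD, n = 6). Its 6 legs of 9-14d read 11.5, 11.5, 11.4, 11.5, 11.6 and 11.9, and its 4 legs of 5-8d 11.5, 11.3, 11.2 and 11.7, so the ranges overlap and the difference of 0.16 (SE 0.19) did not pass (adjusted p = 0.75, limma). Ldhd, a D-lactate dehydrogenase, Coq10a, a coenzyme Q-binding protein, and Tcea3, a transcription elongation factor of muscle, also fell early and held, with later differences of -0.11, -0.03 and -0.14. In the other direction Cd151, a tetraspanin partner of laminin-binding integrins, rose by 1.45 by 5-8d and then differed by 0.03 (SE 0.13). Rangap1, which activates the GTPase of nuclear transport, Mdc1, a mediator of the DNA-damage checkpoint, and Septin10, a cytoskeletal GTP-binding protein, rose by 1.39, 1.46 and 1.63 and then differed by -0.09, -0.10 and -0.00.

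Ribosomal and mitochondrial lists had many members that held, although they make up a small part of the 2242. Of 55 cytosolic ribosomal protein genes, 45 rose by 5-8d (26.9% of all genes did). Of those 45, 43 held, as did 61.9% of all genes called first. The list's median later difference was 0.12 against -0.01 over all genes. At 9-14d 48 of the 55 were higher on average than at 5-8d and 7 lower. At an unadjusted p under 0.05 8 were higher and 0 lower (7.77% and 6.66% of all genes). Against 6h-4d 53 of the 55 were higher at 9-14d, so a small further rise went with holding within 1.5-fold. Of 41 genes of the respiratory chain and ATP synthase, 31 fell and 24 of those held (median later difference 0.01), and of 16 citric acid cycle genes 14 fell and 11 held (0.05). Over all genes 12% fell by 5-8d. Glycolysis and glycogen genes had the deepest early fall of these lists, with 19 of 29 lower and 2 higher, but only 4 held and 17 could not be placed (0.11). Of 24 genes of the unfolded protein and ATF4 response, 11 passed the early test and 10 held. No member of these lists passed between 9-14d and 5-8d. At an unadjusted p under 0.05 the respiratory chain list had 0 higher and 1 lower, and the citric acid cycle list 1 higher and 1 lower. Among the mitochondrial genes with the smallest unadjusted p, Idh2, an isocitrate dehydrogenase of the citric acid cycle, had 9.69 to 10.6 at 5-8d and 9.92 to 11.6 at 9-14d (difference 0.66, SE 0.28, adjusted p = 0.28, limma), still below its 6h-4d mean of 12.1. Ndufs8 ranged from 9.30 to 9.83 and then from 9.73 to 10.3. In the other direction Cycs ranged from 12.1 to 12.7 and then from 11.9 to 12.3, and Pdhx from 9.22 to 10.3 and then from 8.98 to 9.31.

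**Figure D2:**
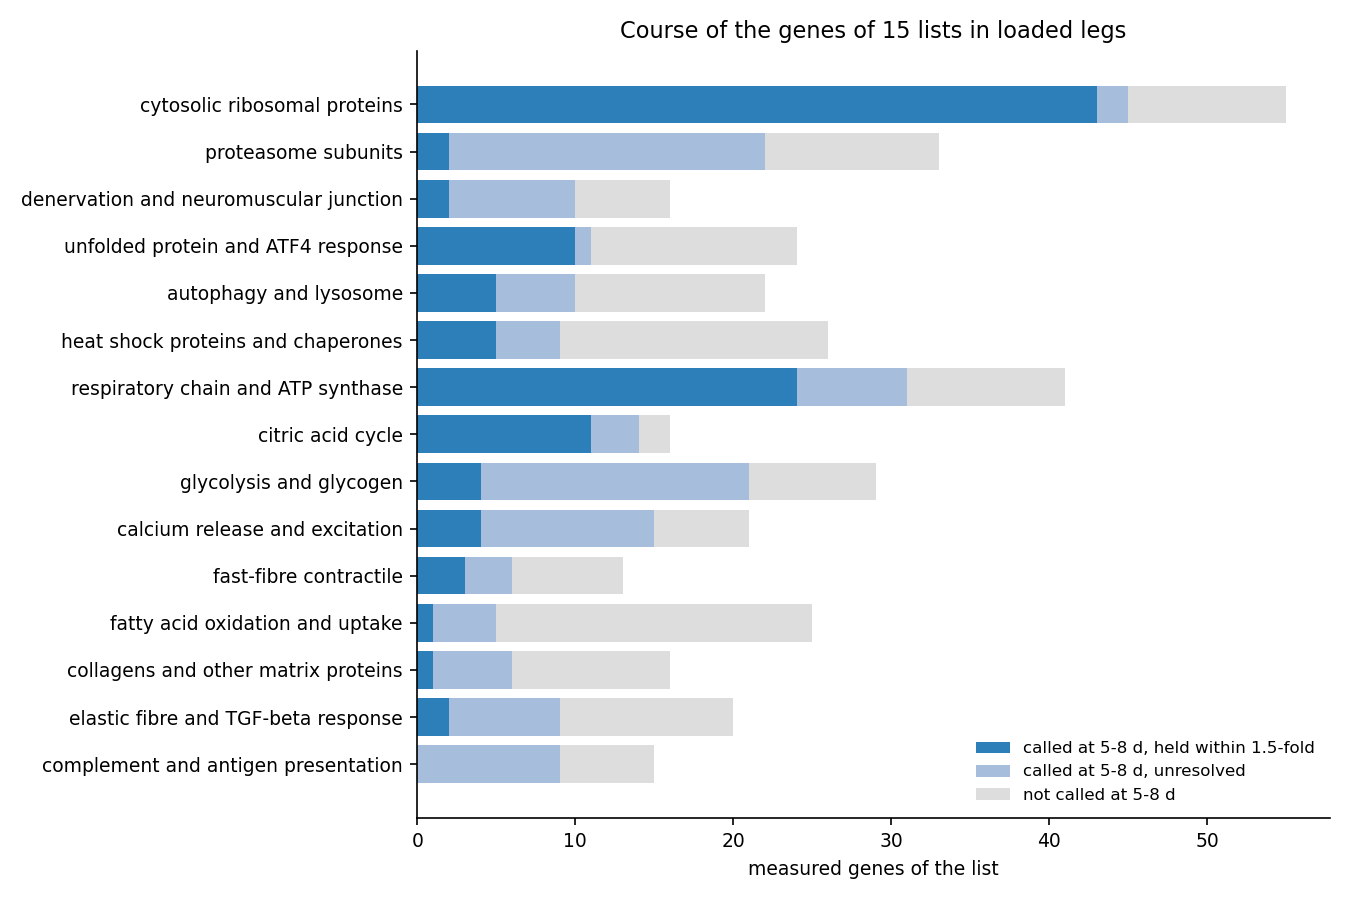
Number of measured genes in 15 gene lists by their course in loaded legs. Dark blue marks genes called between 5-8d and 6h-4d whose 95% interval from 5-8d to 9-14d stayed within 1.5-fold, light blue those called first and then not placed, and grey those not called first. Ribosomal proteins (43 of 55), respiratory chain (24 of 41) and citric acid cycle (11 of 16) have the most held genes, while of 22 proteasome genes called first 20 could not be placed.

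The 15 genes higher at 9-14d were led by membrane proteins. Slc51a, the alpha subunit of the organic solute transporter that carries bile acids and steroids across epithelial membranes, read 5.17, 7.25, 5.66 and 6.80 in the 5-8d legs 42, 44, 54 and 56. In the 9-14d legs 46, 48, 50, 52, 58 and 60 it read 7.88, 9.47, 9.80, 10.5, 10.1 and 8.60. All 6 later legs were above all 4 earlier ones, and the difference was 3.17 (SE 0.43, 8.99-fold, adjusted p = 0.0013, limma), while 5-8d and 6h-4d differed by 0.46 without passing. Legs 42 and 54 of 5-8d lay below the lowest array median of 6.07, so this fold starts close to the array medians. Ctxn3, cortexin 3, a small membrane protein little studied in muscle, ranged from 6.04 to 8.54 at 5-8d and from 9.18 to 11.4 at 9-14d without overlap (difference 2.74, SE 0.42, 6.69-fold, adjusted p = 0.0051, limma), after an early rise of 1.13. Mymk, myomaker, the membrane protein that drives fusion of myoblasts, read 6.75, 7.47, 5.76 and 5.97 at 5-8d and 7.97, 8.45, 11.4, 8.88, 9.22 and 8.21 at 9-14d. Its ranges did not overlap, leg 50 lay well above the other 5 legs of its window, and the difference was 2.53 (SE 0.47, 5.77-fold, adjusted p = 0.021, limma). For Mymk legs 54 and 56 of 5-8d likewise lay below the lowest array median. Without leg 50 Mymk differed by 2.05 (adjusted p = 0.010, limma), and it did not pass without leg 42, 54, 56 or 58 (adjusted p = 0.11, 0.15, 0.093 and 0.062). Mymk was the only one of 10 measured satellite cell and myogenesis genes to pass, and the median of that list was 0.15.

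Genes of mechanical sensing, matrix and immune cells followed. Piezo1, a mechanically gated cation channel, read 7.48, 8.26, 7.14 and 8.73 at 5-8d and 8.98, 9.14, 9.97, 9.39, 10.03 and 8.93 at 9-14d. Its windows did not overlap, and it was 2.84-fold higher (1.50, SE 0.28, adjusted p = 0.021, limma), having risen by 0.76 before. Cst7, cystatin F, an inhibitor of lysosomal cysteine proteases made mainly by immune cells, ranged from 7.34 to 9.30 and then from 9.21 to 11.9 (2.41, SE 0.43, 5.33-fold). Its 9-14d legs read 9.21, 11.9, 10.5, 9.83, 11.8 and 10.7 in order of leg number, highest in leg 48. Sirpa, the receptor for CD47 on macrophages and other myeloid cells, ranged from 8.14 to 9.19 and then from 8.88 to 11.2 (1.48, SE 0.32, 2.80-fold). Lama5, the laminin alpha-5 chain of basement membranes, ranged from 7.84 to 9.15 and then from 8.72 to 10.2 (1.06, SE 0.23, 2.08-fold). In these 3 genes the windows overlapped because leg 46 of 9-14d lay below the highest leg of 5-8d. Timp2, a secreted inhibitor of matrix metalloproteinases, ranged from 9.81 to 10.3 and then from 10.3 to 11.5 without overlap (0.93, SE 0.20, 1.90-fold, adjusted p = 0.049, limma), and was the only one of 14 measured matrix protease and inhibitor genes to pass.

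The remaining higher genes were Mrgprf, an orphan receptor of the Mas-related family (1.15, SE 0.19, 2.23-fold), Sdr9c7, a short-chain dehydrogenase known from skin (1.17, SE 0.24, 2.25-fold), Vkorc1, the vitamin K epoxide reductase (0.63, SE 0.12, 1.55-fold), Naxe, which repairs damaged NADH and NADPH (0.57, SE 0.12, 1.48-fold), Lactb, a filament-forming protein of the mitochondrial intermembrane space (0.56, SE 0.11, 1.48-fold), and Snx17, an endosomal sorting protein named here although it is outside the rule for named genes (0.53, SE 0.10, 1.44-fold). Cldn4, a tight junction protein, also passed (difference 0.88), but its 5-8d mean of 5.61 lies below the lowest array median, so no fold is given for it. It read 5.47 to 5.79 at 5-8d and 5.81 to 7.13 at 9-14d, against array medians of 6.07 to 6.20. Among the later loaded legs only those of 9-14d thus helped Cldn4 past the filter. Cldn4 did not pass without the filter and was not tested under the stricter one.

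**Figure D3:**
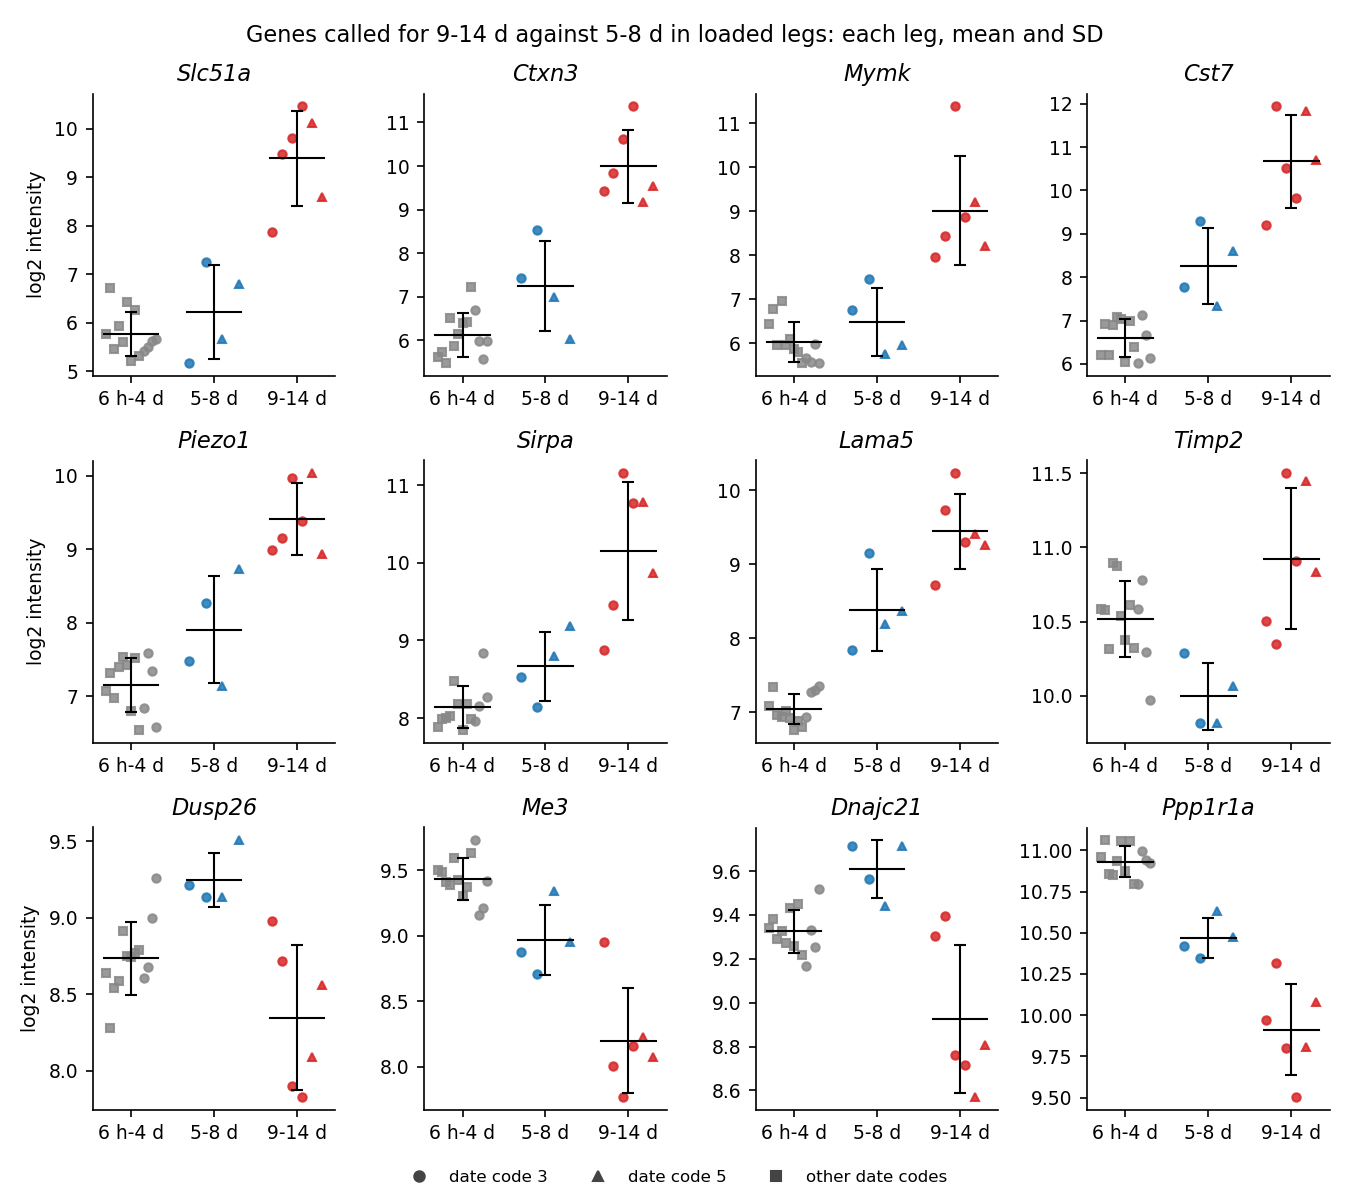
Level of 12 of the 21 genes that passed between 9-14d and 5-8d, in every loaded leg on the log2 scale, for the 3 windows. Each point is 1 leg, the shape gives its date code, and bars show the mean and SD of 13, 4 and 6 legs. In Slc51a, Ctxn3, Mymk, Piezo1 and Timp2 all 9-14d legs lie above all 5-8d legs, and in Dusp26, Dnajc21 and Ppp1r1a all lie below.

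The 6 genes lower at 9-14d changed less. Dusp26, a dual-specificity phosphatase, read 9.22, 9.13, 9.13 and 9.50 in the 5-8d legs and 8.98, 8.72, 7.90, 7.83, 8.09 and 8.56 in the 9-14d legs. The windows did not overlap and the difference was -0.90 (SE 0.19, 1.87-fold lower, adjusted p = 0.049, limma). Me3, the mitochondrial NADP-dependent malic enzyme, read 8.87, 8.71, 9.34 and 8.95 and then 8.95, 8.01, 7.77, 8.16, 8.23 and 8.08, so that leg 46 alone lay within the 5-8d range (-0.77, SE 0.16, 1.70-fold lower). Dnajc21, a J-domain co-chaperone of ribosome assembly, ranged from 9.44 to 9.71 and then from 8.57 to 9.39 (-0.68, SE 0.13, 1.60-fold lower). Ppp1r1a, the protein kinase A-dependent inhibitor of protein phosphatase 1, ranged from 10.3 to 10.6 and then from 9.50 to 10.3 (-0.56, SE 0.11, 1.47-fold lower). Kcmf1, a ubiquitin ligase (-0.50, SE 0.11, 1.41-fold lower), and Cebpg, a bZIP factor that pairs with ATF4 (-0.39, SE 0.08, 1.31-fold lower), completed the group.

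Read along the whole course, the 21 genes fall into 3 kinds. The 8 that continued were Cst7, Ctxn3, Piezo1, Lama5, Sdr9c7 and Lactb, which rose in both steps, and Me3 and Ppp1r1a, which fell in both. Lama5 rose by 1.34 and then by 1.06, and Ppp1r1a fell by 0.46 and then by 0.56. The 4 that returned were Dusp26 and Kcmf1, higher at 5-8d and then lower, and Timp2 and Naxe, lower at 5-8d and then higher. All 4 passed the level of the first window: against 6h-4d the 9-14d legs differed by -0.39 in Dusp26 (adjusted p = 0.035), -0.23 in Kcmf1 (0.023), 0.41 in Timp2 (0.035) and 0.26 in Naxe (0.021), all by limma. These classes were small and moved with the processing. The continued class had 1 gene with date code as a term and 0 to 20 with 1 leg left out. The returned class had 0 genes without the filter, after cyclic loess, after median subtraction or without legs 50 and 52, and 0 to 39 with 1 leg left out. The 9 late genes, with no call in the first step, were Slc51a, Mymk, Sirpa, Mrgprf, Vkorc1, Cldn4 and Snx17 among the higher genes and Dnajc21 and Cebpg among the lower.

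The number of genes called between the later windows depended on which legs set the spread. Fitted on the 10 later legs alone, limma called 0 genes (1047 at an unadjusted p under 0.05), against 1341 unadjusted in the fit with all 23 loaded legs (14.4%). Leaving out leg 42, 44, 54 or 56 of 5-8d gave 2, 72, 2 and 9 calls in turn. Leaving out leg 46, 48, 50, 52, 58 or 60 of 9-14d gave 143, 88, 6, 7, 4 and 34, and leaving out both 50 and 52 gave 6. Without legs 36 and 38 of 6h-4d it gave 53, of which 37.7% were higher. The split between higher and lower calls also moved with the scaling: after cyclic loess or subtraction of array medians, all 10 and all 9 calls were higher. With date code as a term 27 genes passed, 63.0% of them higher, and 14 of the 21 were among them. Slc51a and Ctxn3 passed with every single leg left out. The sign of all 21 differences was the same in date code 3 and in date code 5. In 14 of the 21 the SD was greater in both later windows than in 6h-4d, which was so for 35.2% of all genes, so the legs of 6h-4d lower the shared spread in those genes.

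Genes that respond to loss of nerve activity were mostly higher in both later windows than in the first. Of 16 measured genes of denervation and the neuromuscular junction, 10 rose by 5-8d and none fell, where 26.9% of all genes rose and 12% fell. None passed between the later windows (median later difference 0.24), and of the 10, 2 held and 8 could not be placed. Against 6h-4d the 9-14d legs had 12 higher and 1 lower. Chrna1 and Chrng encode the alpha subunit and the fetal gamma subunit of the acetylcholine receptor, the molecule that the toxin blocks. Their upstream sequences are shown because receptor genes are classic targets of myogenin and its relatives through the E-box CAGCTG, and both passed as higher at 5-8d than at 6h-4d. The 250 bases before each start are given 5′ to 3′ from RefSeq (build GRCr8), with CAGCTG in capitals. Chrna1 lies on the minus strand at chr3:78877354-78877603 and Chrng on the plus strand at chr9:95325734-95325983.
Chrna1: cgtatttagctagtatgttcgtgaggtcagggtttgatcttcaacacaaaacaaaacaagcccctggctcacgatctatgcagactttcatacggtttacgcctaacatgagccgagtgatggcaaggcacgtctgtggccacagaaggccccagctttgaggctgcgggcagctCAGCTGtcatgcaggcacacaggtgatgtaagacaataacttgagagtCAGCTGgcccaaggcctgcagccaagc
Chrng: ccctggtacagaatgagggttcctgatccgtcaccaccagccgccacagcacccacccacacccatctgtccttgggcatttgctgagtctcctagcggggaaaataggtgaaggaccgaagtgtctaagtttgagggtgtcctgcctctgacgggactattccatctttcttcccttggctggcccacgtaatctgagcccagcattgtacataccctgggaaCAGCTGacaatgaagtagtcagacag
The motif reads the same on both strands, overlaps no match of the other motifs searched (TGACGTCA, CCAAT and TGATGNAA, on both strands), and starts 75 and 27 bases before the start of Chrna1 and 26 bases before that of Chrng. It occurred in 5 of the 12 listed denervation genes with a promoter entry (also once each in Chrnb1, Chrne and Musk), in 13.0% of the 7736 promoters of tested genes, and in none of the 12 entries found for the 21 genes called. Of those 12, 4 held CCAAT (35.8% of tested genes) and none held TGACGTCA (2.7%) or TGATGNAA (1.8%). A match is a match of letters in this window and no more.

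Chrna1 read 8.60, 12.6, 13.1 and 13.3 in the 5-8d legs and 12.6, 13.0, 13.1, 13.3, 13.5 and 13.3 in the 9-14d legs, against a 6h-4d mean of 8.24. Every later leg but leg 42 was thus at 12.6 or more, and the difference of 1.22 (SE 0.77, adjusted p = 0.49, limma) fell to 0.11 without leg 42. Chrng read 6.49, 7.08, 8.39 and 9.05 and then 7.32, 8.69, 9.62, 10.6, 10.1 and 9.73, with leg 46 and leg 48 inside the 5-8d range (1.61, SE 0.46, adjusted p = 0.12, limma). Myog, the myogenin gene itself, stood at 11.1 to 11.9 and then 10.6 to 11.9, up from 8.23 in the first window. Ncam1, the adhesion molecule re-expressed on denervated fibres, stood at 10.7 to 12.9 and then 12.1 to 13.2 (0.94, SE 0.38, adjusted p = 0.25, limma). Without leg 42 the median of the list was 0.07 in place of 0.24. Sln, sarcolipin, the inhibitor of the sarcoplasmic calcium pump, was 3.54 higher at 5-8d than at 6h-4d and stood at 12.5 to 13.6 in the 5-8d legs and 12.7 to 14.0 in the 9-14d legs (0.47, SE 0.74, adjusted p = 0.83, limma).

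Sarcomere genes of the embryo and of the heart were high in some 9-14d legs and not in others. Actc1, cardiac actin, which fetal and regenerating muscle uses, read 7.95, 7.64, 7.71 and 9.63 at 5-8d and 7.91, 7.86, 13.0, 12.5, 11.2 and 10.8 at 9-14d. Myh3, embryonic myosin heavy chain, read 6.71, 6.59, 8.00 and 8.82 and then 7.73, 6.46, 11.02, 10.5, 10.2 and 10.1. In both genes legs 50, 52, 58 and 60 lay above the 5-8d range. Legs 46 and 48 lay within it, except that Myh3 in leg 48 was just below the lowest 5-8d leg. At 6h-4d Actc1 had ranged from 7.88 to 10.9 (median 9.31). Leg 60 thus lay within the first-window range of Actc1, and legs 50, 52 and 58 lay above it. Myh3 had ranged from 6.45 to 8.57 at 6h-4d, below its values in legs 50, 52, 58 and 60. No gene of the list passed between 5-8d and 6h-4d, and 2 of 4 were higher at 9-14d than at 6h-4d. Tnnt2, cardiac troponin T, was 6.21 to 7.11 and then 6.90 to 10.5. All 4 measured genes of the list were higher on average (median 1.74, 3 of 4 at an unadjusted p under 0.05, where 7.77% of all genes were), but none passed. The adjusted p was 0.14 for Tnnt2, 0.19 for Actc1 and 0.21 for Myh3 (limma), and the remaining measured gene, Nes (nestin), has no values given here. Without legs 50 and 52 the median was 0.87. Adult fast-fibre genes had a median of -0.06 over 13 genes and slow-fibre genes -0.26 over 12, none passing. Myh7, the slow myosin heavy chain, ranged from 9.93 to 12.5 and then from 6.44 to 12.6, against 6.64 to 13.1 in the first window. Mybpc2, fast myosin-binding protein C, ranged from 10.95 to 12.0 and then from 9.00 to 11.5 (-1.27, SE 0.37, adjusted p = 0.12, limma).

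Many complement and antigen presentation genes had fallen by 5-8d and lay higher again at 9-14d, with wide spread between legs. Of 15 complement and antigen presentation genes, 8 fell and 1 rose by 5-8d, where 12% of all genes fell and 26.9% rose. All 15 were then higher on average at 9-14d, with a median difference of 0.94, and 12 of 15 were higher at an unadjusted p under 0.05 (7.77% over all genes), but 0 passed after adjustment by limma. Against 6h-4d the 9-14d legs had 2 of 15 higher and none lower. Cd74, the invariant chain of class II antigen presentation, read 9.66, 10.95, 10.1 and 10.2 at 5-8d and 10.7, 11.2, 12.3, 12.5, 11.9 and 10.98 at 9-14d, against 11.4 in the first window. Its windows overlapped through leg 44, and the difference of 1.36 (SE 0.34) had an adjusted p of 0.092 (limma). RT1-DMa, a class II peptide-loading chain, gave 1.09 (SE 0.32, adjusted p = 0.12, limma).

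Macrophage markers were also higher on average at 9-14d than at 5-8d. None of the 15 measured markers passed between 5-8d and 6h-4d (median -0.19). In the later step all 15 had higher means (median 0.97). Of the 15, 11 were higher at an unadjusted p under 0.05 (7.77% of all genes were), and 0 passed after adjustment by limma. Against 6h-4d 8 of the 15 were higher (29% of all genes were) and none lower. The mean of the list was 7.88, 7.02, 7.15 and 6.88 in the 5-8d legs and 7.10, 7.31, 9.37, 9.12, 8.18 and 8.10 in the 9-14d legs, so that legs 46 and 48 lay within the 5-8d range. Csf1r, the receptor on which macrophages depend, was 8.07 to 8.53 and then 7.85 to 9.86, and Lyz2, lysozyme, 8.60 to 9.97 and then 9.27 to 12.3. Ctss, cathepsin S, a lysosomal protease of antigen-presenting cells, was 7.41 to 7.78 and then 7.65 to 9.71 (1.27, SE 0.32, adjusted p = 0.092, limma). In whole muscle, more cells of a type and more RNA per cell cannot be told apart, and the part of these markers in the higher Sirpa and Cst7 was not tested. T and B lymphocyte markers were mostly below the filter, with 2 of 9 on the array measured (median 0.37), and neutrophil markers likewise (2 of 7, 0.07). In each pair 1 gene was higher on average (Cd4, Csf3r) and 1 lower (Cd79b, S100a9), so neither median describes a cell type. Without legs 50 and 52 the macrophage median was 0.48 and that of complement and antigen presentation 0.49. The inflammatory, acute-phase and interferon list had a median of 0.40 over 26 genes, which fell to 0.01 without these 2 legs, and its largest named member was Ccl2, a monocyte chemokine, at 7.23 to 8.16 and then 8.09 to 11.9 (2.26, SE 0.65, adjusted p = 0.12, limma).

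Of 16 collagens and other matrix proteins, 6 fell by 5-8d and none rose, where 12% of all genes fell and 26.9% rose. At 9-14d 15 of the 16 were higher on average than at 5-8d (median 0.77), and without legs 50 and 52 the median was 0.25. Of the 16, 7 were higher at an unadjusted p under 0.05 (7.77% of all genes were), and 0 passed after adjustment by limma. Against 6h-4d the 9-14d legs had 2 of 16 higher and 3 lower (median -0.11). Col1a1, the main fibrillar collagen chain, read 8.29, 8.19, 9.28 and 7.96 and then 8.30, 8.01, 11.8, 9.86, 9.18 and 8.50, against 10.8 in the first window, so that legs 50 and 52 alone lay above the 5-8d range (0.85, SE 0.71, adjusted p = 0.63, limma). The elastic fibre and TGF-beta response list had a median of 0.67 over 20 genes, and 0.31 without legs 50 and 52. Of the 20, 12 were higher at an unadjusted p under 0.05 (7.77% of all genes were). By 5-8d 7 genes of this list had fallen and 2 risen (median -0.49), and against 6h-4d the 9-14d legs had 6 higher and 1 lower (median 0.20). Its closest to the threshold were Fbln1, fibulin 1, at 6.40 to 7.22 and then 7.41 to 8.31 without overlap (1.07, SE 0.25, adjusted p = 0.065, limma), and Mfap4, a microfibril-associated protein, at 6.95 to 9.15 and then 8.43 to 11.4 (1.79, SE 0.44, adjusted p = 0.086, limma). Fibroblast markers had a median of 0.47 over 9 genes and tendon markers 0.60 over 5. Of the fibroblast markers 4 had fallen by 5-8d and none risen (median -0.48), and the median of 9-14d against 6h-4d was -0.15. Of the tendon markers 4 had fallen by 5-8d and none risen (median -2.21). Against 6h-4d the 9-14d legs still had 4 tendon markers lower and 1 higher (median -1.61). Endothelial, smooth muscle, Schwann cell and adipocyte markers had medians between -0.05 and 0.04. Mast cell and blood markers gave 0.16 over 3 genes and 0.48 over 2. All 3 mast cell markers had fallen by 5-8d (median -0.80), and 2 were still lower at 9-14d than at 6h-4d (median -0.73). The part of fibroblast abundance in the matrix values was not tested.

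**Figure D4:**
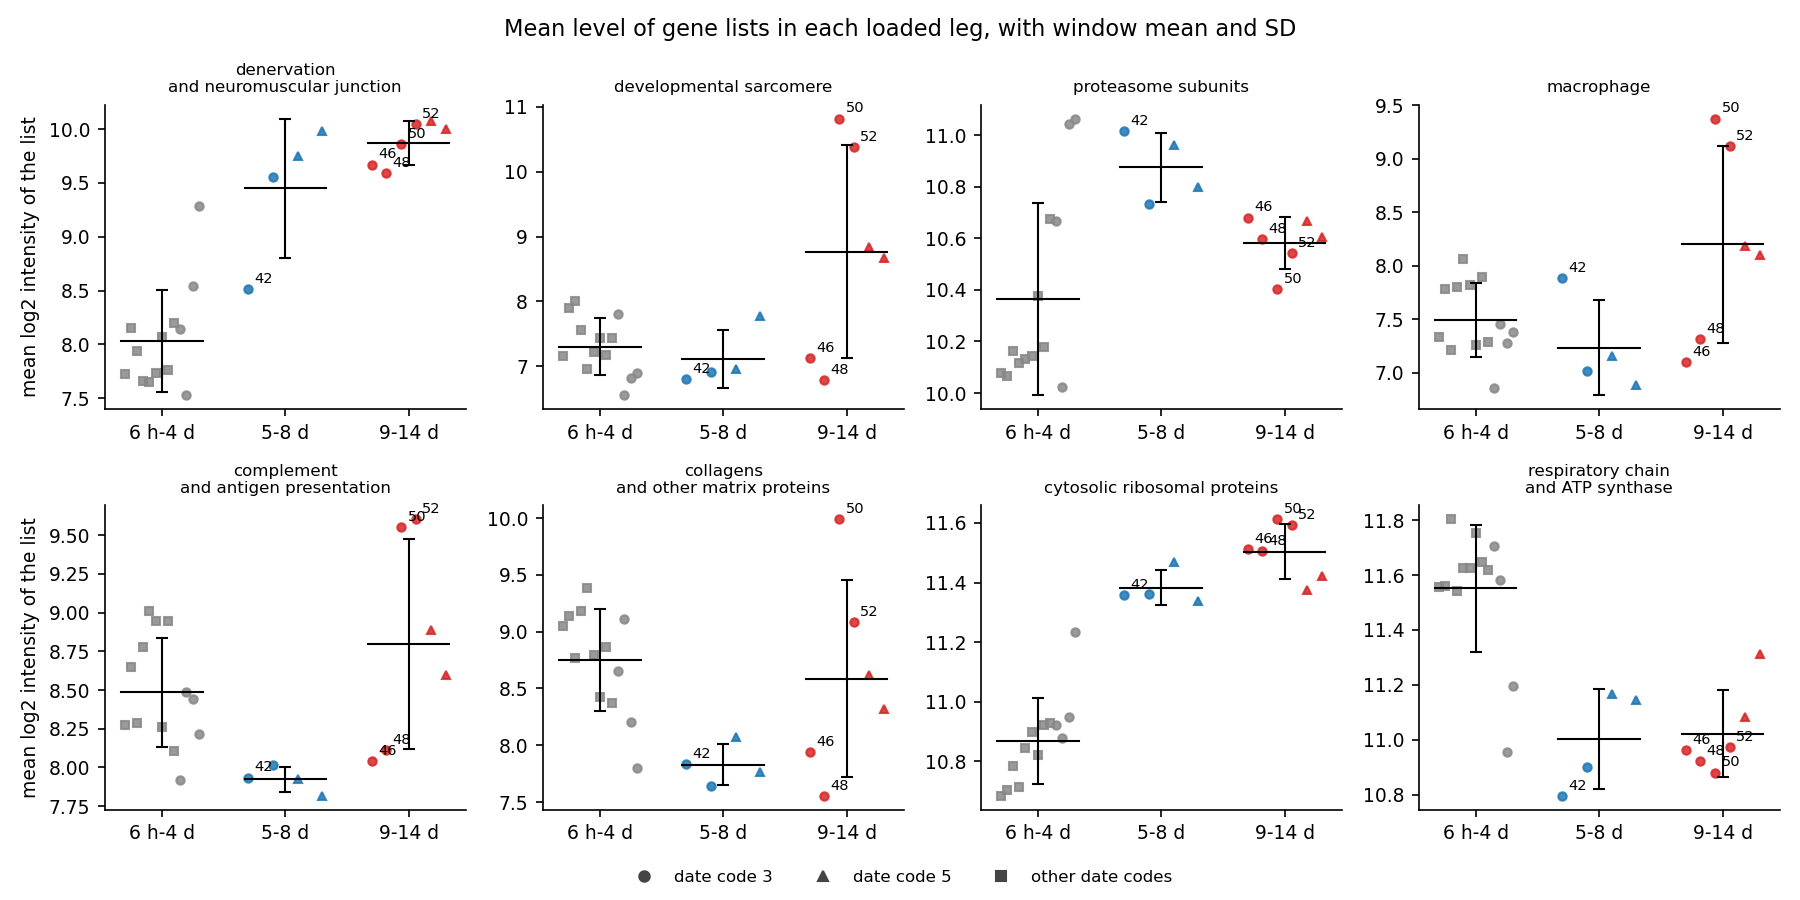
Mean log2 level of 8 gene or marker lists in each of the 23 loaded legs, with the window mean and SD. Shapes give the date code, and legs 42, 46, 48, 50 and 52 are numbered. Leg 42 is at 8.52 in the denervation panel where the other 5-8d legs are at 9.55 to 9.98, and in the macrophage, complement, collagen and developmental sarcomere panels legs 50 and 52 lie highest of the 10 later legs and legs 46 and 48 near the 5-8d legs. In the collagen panel leg 52 lies below some 6h-4d legs.

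Proteasome subunit genes were lower at 9-14d than at 5-8d on average, without any single gene passing. Of 33 proteasome subunit genes, 22 rose by 5-8d, where 26.9% of all genes did. At 9-14d 30 of the 33 were lower on average than at 5-8d (median -0.31), with 5 of 33 at an unadjusted p under 0.05 (6.66% of all genes were lower at that level) and 0 after adjustment by limma, and against 6h-4d the 9-14d legs had 5 higher and 1 lower. Psma6, an alpha-ring subunit, read 11.01, 10.8, 10.96 and 10.9 and then 10.6, 10.6, 10.1, 10.2, 10.3 and 10.3, so the windows did not overlap (-0.56, SE 0.20, adjusted p = 0.19, limma), and its 9-14d mean was back at that of the first window (10.4 and 10.3). Fbxo32, the atrophy ligase atrogin-1, read 13.2, 13.2, 13.3 and 13.5 and then 13.3, 13.1, 12.0, 12.6, 12.4 and 12.8 (-0.60, SE 0.18, adjusted p = 0.13, limma). Trim63, the atrophy ligase MuRF1, read 12.9, 12.1, 13.1 and 13.0 and then 12.3, 11.6, 10.9, 11.1, 12.4 and 12.5 (-0.99, SE 0.30, adjusted p = 0.14, limma). The median over the 20 atrophy ligase and FoxO target genes was -0.09, with 5 lower and 0 higher at an unadjusted p under 0.05 (6.66% and 7.77% of all genes). Autophagy and lysosome genes had no common direction (median -0.09 over 22, 2 higher and 1 lower at that level, Ctss among the higher). Gabarapl1, the lower one and an autophagosome protein, was 10.9 to 11.6 and then 9.85 to 10.8, without overlap (-0.80, SE 0.25, adjusted p = 0.14, limma).

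Atf4, the transcription factor of the amino acid and stress response that can pair with the Cebpg product, read 9.88, 8.98, 9.71 and 9.97 and then 8.86, 8.65, 8.73, 9.05, 8.62 and 9.27. Only leg 44 of 5-8d lay within the 9-14d range (-0.77, SE 0.18, adjusted p = 0.061, limma), and the median over the 24 genes of its list was 0.04. Stretch and Z-disc genes had a median of -0.08 over 16, with 2 higher and 1 lower at an unadjusted p under 0.05 (7.77% and 6.66% of all genes). Lmcd1, a LIM-domain protein of muscle, read 8.22, 6.99, 7.13 and 7.55 at 5-8d and 8.49, 6.41, 10.05, 10.4, 9.87 and 9.28 at 9-14d, with leg 48 below the 5-8d range and the other 5 legs above it (1.61, SE 0.60, adjusted p = 0.21, limma). In the other direction Nrap, an actin-anchoring protein of growing myofibrils, was 12.9 to 13.5 and then 12.1 to 12.8, without overlap (-0.53, SE 0.13, adjusted p = 0.065, limma). Ankrd1, a stretch-induced cardiac ankyrin repeat protein, was 4.63 higher at 5-8d than at 6h-4d and stayed at 12.7 to 13.2 in 5 of the 6 legs of 9-14d, with leg 48 at 9.93. Mstn, myostatin, the inhibitor of muscle growth, had a mean of 9.49 at 6h-4d and of 5.94 at 5-8d, below the lowest array median, so no fold is given for either step. Chaperones, circadian clock genes, oxidative stress and metallothionein genes, fatty acid oxidation, calcium release, growth factor, polyamine and amino acid, and cell cycle genes had list medians between -0.12 and 0.18, and none of their members passed between the later windows. Of 24 cell cycle genes on the array only 6 were above the filter.

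The unloaded legs of the same rats were compared over the same windows. Between 9-14d and 5-8d 21 genes passed in unloaded legs as well (0.226%), 17 higher (0.183%) and 4 lower (0.0431%). All 21 genes called in loaded legs had the same sign in unloaded legs, which come from the same rats and are no independent check, and 5 passed there too: Slc51a, Ctxn3, Mymk, Mrgprf and Sdr9c7, with unloaded differences of 2.63, 3.12, 1.88, 1.25 and 1.14. The test of whether the later change differed between legs, with rat as a block over all 46 arrays, called 0 genes (0%; 248 at an unadjusted p under 0.05, which is 2.67%, smallest adjusted p 1.00, limma), which does not show that the legs changed alike. List medians of the later difference were 1.74 in loaded and 1.03 in unloaded legs for the developmental sarcomere and 0.67 and 0.24 for elastic fibre and TGF-beta response. They were 0.40 and 0.78 for the inflammatory list, 0.97 and 1.30 for macrophage markers and 0.77 and 0.67 for collagens. Among the 21 genes, which were chosen on the loaded legs, the loaded minus unloaded change ran from -0.38 in Ctxn3 to 0.88 in Cst7, and its 95% interval included 0 in 20. The exception was Cldn4, at 0.71 (interval 0.23 to 1.20), with its 5-8d level below the lowest array median. Among the later loaded legs only those of 9-14d helped Cldn4 past the filter, so its difference is not read further. The 5 smallest p of this test over all genes were those of Pmepa1, a TGF-beta target (1.36), Vldlr, a lipoprotein receptor (0.80), Aagab, an adaptor-complex chaperone (0.72), Nthl1, a DNA glycosylase (0.35), and Abcb1b, a drug efflux pump whose later means lie below the lowest array median. The rat of each leg was inferred from consecutive leg numbers. With array quality weights 5 genes passed, among them Pmepa1 at 1.68 (adjusted p = 0.0022), Vldlr at 1.00 (0.0027) and Aagab at 0.87 (0.045).

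**Figure D5:**
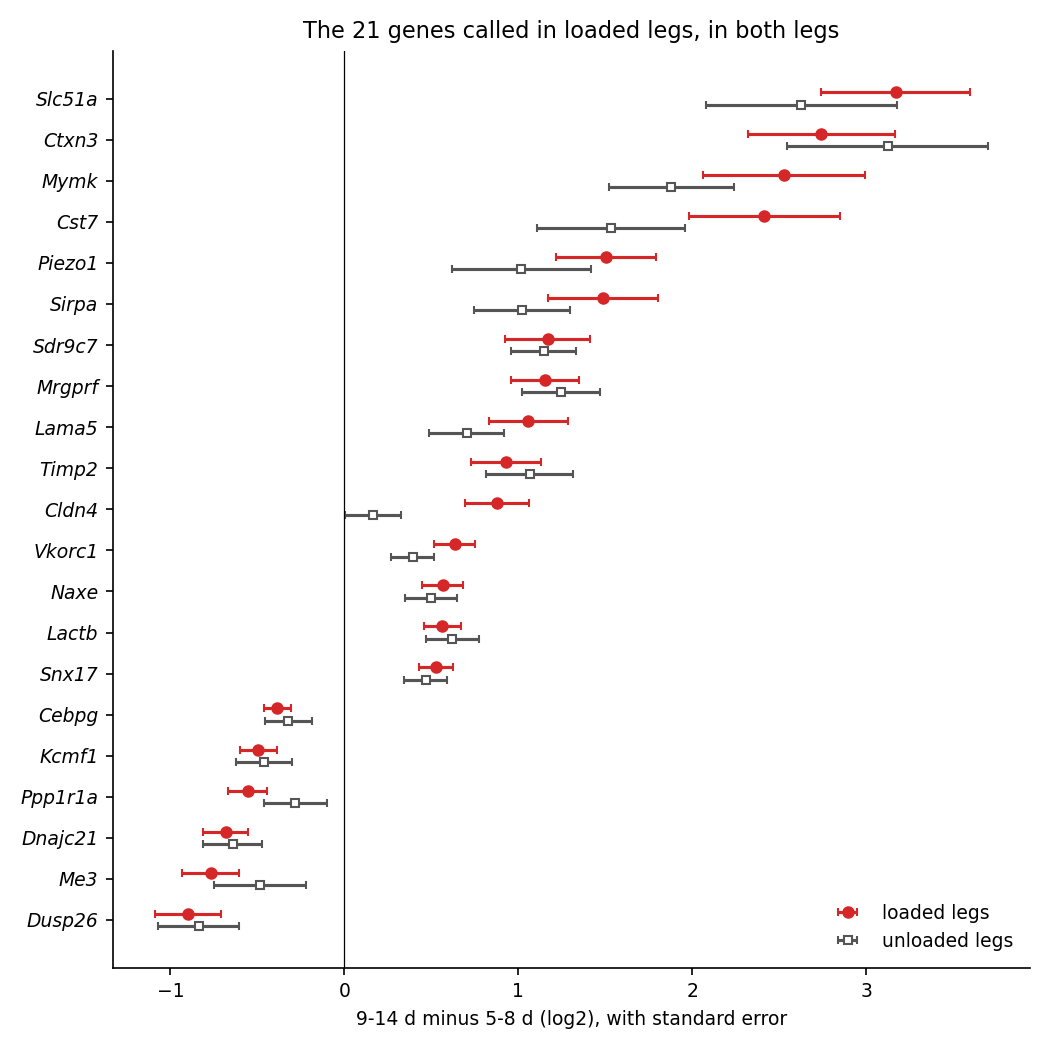
Difference between 9-14d and 5-8d (log2, with standard error) for the 21 genes called in loaded legs, in loaded legs (filled circles, 6 against 4) and in unloaded legs of the same rats (open squares, 6 against 4). All 21 genes have the same sign in both legs, from 3.17 and 2.63 in Slc51a to -0.90 and -0.84 in Dusp26, and Cldn4 has the widest gap among genes near 1.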

How the data were processed

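The deposited values are log2 intensities of 26208 probe sets on 46 arrays, made by the authors with RMA (robust multi-array average, which corrects background, quantile-normalises and summarises probes; version not stated), per the submitters' processing notes. Other settings are not given in the sources used here. RMA forces all arrays to 1 distribution, so a shift of all RNA cannot be seen. Probe sets above the array median on 4 or more arrays were retained (14834). Each gene with a single symbol was represented by its kept probe set with the highest mean (9289 genes).

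All 23 loaded legs were fitted by window with limma 3.58.1 (lmFit, eBayes, R 4.3.3), two-sided, with Benjamini-Hochberg adjustment over all genes at 0.05. A second fit of all 46 arrays had rat as a block. The rats of the 10 later pairs, inferred from consecutive leg numbers, had legs whose deviations correlated at 0.18 to 0.72, and 9 of 10 legs were closest to their own partner. Each rat gave 1 array to the first fit and 2 to the second, so p-values of the first measure the spread between rats. The code was tested on simulated data. A gene below the lowest array median in both windows, or in either, is given no fold.

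The rule for named genes took all those called (up to 12 per direction), the strongest of each course class, up to 4 called or else the 2 with the smallest p of each list, the 5 smallest p between legs and 14 fixed genes. Some genes so taken, mainly list members that did not pass, are not described. Of the fixed genes, Rbm3 ranged from 10.4 to 10.6 at 5-8d and 9.20 to 11.4 at 9-14d. Ccn2 ranged from 8.26 to 8.78 and then 8.04 to 10.1, and Akr1c14 from 6.56 to 7.45 and then 6.03 to 6.80. These genes did not pass between the later windows. The comparison, the genes and the lists were chosen with earlier results of these data known.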

Additional observations from a re-analysis of the deposited data

Results flagged for a closer look

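For 42 named genes the legs of 5-8d and of 9-14d were searched for a single leg far from the rest of its window. Of 84 groups, 6 had one, where chance gives about 1 in 20 (4.2). Chrna1 was 8.60 in leg 42 of 5-8d against 12.6 to 13.3 in the other 3 legs. Ldhd was 6.70 in the same leg against 7.11 to 7.14. Ankrd1 was 9.93 in leg 48 of 9-14d against 12.7 to 13.2 in the other 5. Mymk was 11.4 in leg 50 against 7.97 to 9.22. In leg 60 Pfkm was 11.9 against 11.4 to 11.6, and Mdc1 was 7.33 against 7.76 to 7.96.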

How the results depend on the processing

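With 4 legs of 5-8d and a median standard error of 0.156 for a later difference, a gene that misses the threshold may still differ. All 21 differences kept their sign in every alternative that tested them, and Cldn4 was not tested under the stricter filter. In date code 5 alone (legs 54 and 56 against 58 and 60) 106 genes passed, but only 4 of the 21 were among them. The 21 calls became 0 in the 10 later legs alone, 0 in date code 3 alone (443 at an unadjusted p under 0.05) and 53 without legs 36 and 38. They became 12 without the filter, 10 after cyclic loess, 9 after median subtraction, 136 with array quality weights (46.3% higher), and 2 to 143 with 1 leg left out. With 2 additions made after seeing the data, they became 0 (10 later legs with date code as a term, 1416 unadjusted) and 6 (without legs 50 and 52). The first-step and 9-14d minus 6h-4d counts were recomputed without legs 36 and 38, without the filter and with a stricter one, and moved by less than 1.5 times. These counts were not recomputed with date code as a term, although most 6h-4d legs carry codes that no later leg has.

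Continued genes (8) became 1 with date code as a term, 5 without the filter, 2 after loess, 3 after median subtraction, 19 with weights and 3 without legs 50 and 52, and ran from 0 to 20 with 1 leg left out. Returned genes (4) became 27 without legs 36 and 38, 2 with the date code, 0 without the filter, after loess, after median subtraction and without legs 50 and 52, and 78 with weights, and ran from 0 to 39. Late genes (9) became 17, 24 with the date code, 39 with weights and 3 without legs 50 and 52, and ran from 1 to 84. Held genes (2242) became 583 with the date code, and ran from 1577 to 2271 with 1 leg left out. The difference between legs called 0 genes, 0 with legs unpaired (no replicate block), and 5 with weights.

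Signs turned only in genes that passed under no such setting. In date code 5 alone Ankrd1 was 0.12, Eno3 0.062, Kera -0.16, S100a9 0.079 and S100b -0.18. S100a9 was 0.039 with weights, and Cpa3 -0.052 without legs 50 and 52. With 1 leg left out Ankrd1 ran from -0.35 (without leg 44) to 0.34 (without leg 48), Myog from -0.24 (without leg 60) to 0.028 (without leg 54), and S100a9 from -0.57 (without leg 44) to 0.21 (without leg 42). Among the held examples, which have small later differences, Coq10a ran from -0.16 to 0.053 over the alternatives and Mdc1 from -0.36 to 0.11. Rangap1 ran from -0.25 to 0.13, Cd151 from -0.024 to 0.17, Septin10 from -0.16 to 0.11 and Tcea3 from -0.30 to 0.010. Pfkm and Ldhd kept their sign. The cause of the turns was not tested.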

Other observations

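Genes called in the unloaded legs of the same rats between 9-14d and 5-8d, and not described above, included immune genes. Cd4, the T helper and macrophage coreceptor, was 1.37 higher in unloaded legs (adjusted p = 0.023, limma) and 0.97 in loaded legs (adjusted p = 0.14). Cd74 was 1.51 higher in unloaded legs (adjusted p = 0.023) and RT1-Da, a class II antigen-presenting chain, 1.58 (adjusted p = 0.024), against 1.36 and 1.33 in loaded legs. Cd200, a ligand that restrains myeloid cells, was 0.87 higher (adjusted p = 0.023) and 0.94 in loaded legs (adjusted p = 0.12). The difference between legs passed in none of these genes. They were named after their values were seen.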
